A study of Mus musculus with 6 samples.

Results

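The unfolded protein response and the secretory machinery of the endoplasmic reticulum (ER) were followed through 33 genes, of 42256 in the count table. The members are ER chaperones, stress sensors with their transcription factors, and genes of ER-associated degradation, of translocation into the ER and of export from it. They were taken by name from a list that uses no measured value, though earlier results of these data were known when it was drawn up. All 33 passed the low-count filter, so no member was lost. For the comparison of the ATF6 and XBP1 chaperones with the PERK targets and the export genes, they were divided by role into 12 chaperones and folding enzymes, 6 sensors and transcription factors, 3 genes of the PERK arm, 6 degradation genes, and 6 translocation and export genes.

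RNA was sequenced from PDGFRa+ cells that had been sorted from the digested scar of mouse hearts 7 days after injury, in a study of the serotonin receptor 5-HT2B in myofibroblasts after myocardial infarction. The 2 control libraries came from Htr2bfl/fl mice, and the 4 libraries of the conditional knockout, called Htr2b_cKO here, came from Htr2bfl/flPostnMCM/+ mice. All mice were of the strain Mixed 129S2/C57Bl6, and both groups received tamoxifen in the chow from 1 week before the injury onward; age is not given in the sources used here. The inducible Cre sits at 1 allele of Postn and so acts only in cells that express periostin, and the control mice carried neither the Cre nor the altered Postn allele. An effect of Htr2b loss and an effect of the Cre or of the Postn allele therefore cannot be told apart. Each library was taken as 1 animal, and in sorted bulk samples fewer cells of a type and less RNA per cell cannot be told apart.

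Proteins bound for secretion enter the ER through the Sec61 channel, fold there with the help of chaperones and disulfide isomerases, and leave in COPII vesicles. When unfolded proteins build up, 3 sensors respond. ATF6 is cut in the Golgi and frees a transcription factor, IRE1 (gene Ern1) splices the Xbp1 mRNA, and PERK (gene Eif2ak3) phosphorylates eIF2α, which slows translation and favours that of ATF4. ATF6 and XBP1 raise chaperones and degradation genes, whereas ATF4 raises amino acid synthesis genes and Ddit3, which encodes CHOP. Fibroblasts of a healing infarct secrete large amounts of procollagen, and this load runs through the same machinery. Only transcript levels were measured, so sensor activation, Xbp1 splicing and protein levels were not analysed here.

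The promoters are shown first, because the ER stress element is the sequence through which ATF6 and XBP1 are known to act on chaperone genes. RefSeq promoters of build GRCm38.p6, from 250 bases before to 50 bases after the start, were found for 27 of the 33 members (28 promoters). Both strands were searched for 4 motifs. The ER stress element, CCAAT and CCACG with 9 bases of any kind between them, was present in 7 of the 27 members (25.9%) and in 37 of 27025 genes with a promoter (0.137%). Its shorter form, ATTGG and CCACG with 1 base between them, was present in Herpud1 and in 12 genes in all (0.0444%). The XBP1-type element TGACGTGG was present in Sec23a and Sec24d and in 193 genes in all (0.714%). The C/EBP-ATF element TGATGNAA, of the kind that ATF4 binds, was present in Herpud1 and Trib3 and in 1219 genes in all (4.51%). No match overlapped one of another motif. The matches upstream of the start follow, each with 5 bases on either side, read along the strand that carries the motif, with the fixed bases of the motif in capitals:
Hspa5, chr2:34772020-34772048, + strand: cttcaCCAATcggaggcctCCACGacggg
Calr, chr8:84847070-84847098, + strand: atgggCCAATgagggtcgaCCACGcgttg
Hsp90b1, distal, chr10:86705633-86705661, - strand: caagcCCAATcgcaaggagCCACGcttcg
Hsp90b1, proximal, chr10:86705528-86705556, + strand: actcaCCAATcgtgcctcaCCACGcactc
Canx, chr11:50325795-50325823, - strand: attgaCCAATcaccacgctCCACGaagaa
Pdia6, chr12:17266486-17266514, + strand: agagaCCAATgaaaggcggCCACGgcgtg
Dnajc3, chr14:118937822-118937850, + strand: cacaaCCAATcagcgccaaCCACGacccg
Syvn1, chr19:6046527-6046555, + strand: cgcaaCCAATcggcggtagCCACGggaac
Herpud1, short ER stress element, chr8:94386372-94386392, + strand: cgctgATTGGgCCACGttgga
Herpud1, C/EBP-ATF element, chr8:94386312-94386329, - strand: cgggcTGATGcAAcccgc
Sec24d, XBP1-type element, chr3:123267465-123267482, + strand: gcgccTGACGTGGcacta

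In the window searched, these ER stress elements lay from 44 bases upstream in Syvn1 to 212 bases upstream at the distal Hsp90b1 match. Sequence further upstream was not searched, so their closeness to the start of transcription was set by the window and is not a result. The 7 genes with the element were 6 chaperones and the degradation gene Syvn1. In Hspa5 and Sec24d the GENCODE gene begins before the RefSeq start, and the match falls within its first exon. A match is a description of the letters and not evidence of binding. The ER stress element was searched because it is known from chaperone genes. Its larger share among the members is therefore not a finding.

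Library totals ran from 28533427 to 37392496 estimated counts, and a count of 0 allows up to 3 counts, or 0.078 to 0.108 CPM (counts scaled to the library's total), for counting error only. The targeted gene did not follow the labels in every library. Htr2b had 13 and 7 estimated counts in the controls and 0, 3, 29 and 4 in the Htr2b_cKO libraries, so the library labelled Htr2b_cKO 3 lay above both controls. Postn, which carries the Cre, had 2309 and 1586 CPM in the controls and 1350, 1526, 2312 and 982 CPM in the knockout libraries. The library labelled Htr2b_cKO 4 stood apart in sex, with Xist at 0.267 CPM and Kdm5d at 26.6 CPM, while the others had Xist at 385 CPM or more. Kdm5d also had 16 estimated counts (0.483 CPM) in Htr2b_cKO 3 and 1 in Htr2b_cKO 2, and 0 in the controls and Htr2b_cKO 1. The sorting marker Pdgfra was present in all 6 libraries, at 668 to 1237 CPM. Plasma cell transcripts were also present. The summed level of 10 plasma cell markers was 1890 and 1808 CPM in the controls and 507, 516, 549 and 1652 CPM in Htr2b_cKO 1 to 4.

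No member differed between genotypes by the quasi-likelihood F test of edgeR after Benjamini-Hochberg adjustment. Over all 15840 genes tested, 3 passed (0.0189%). At an unadjusted p under 0.05 the count was also 0 of 33, against 9.59% of all genes tested, and DESeq2 called none of the 33, against 0.953% of the genes it tested. The lowest adjusted p of any member was 0.568 in edgeR (Herpud1) and 0.590 in DESeq2. Of the 33 log2 fold changes, taken as Htr2b_cKO minus control, 19 were above 0 and 14 below, with a median of 0.03. Over all genes tested, 7918 were above 0 and 7922 below. In 5 of the 33 members the 2 groups of libraries did not overlap, against 19.6% of all genes tested.

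**Figure D1:**
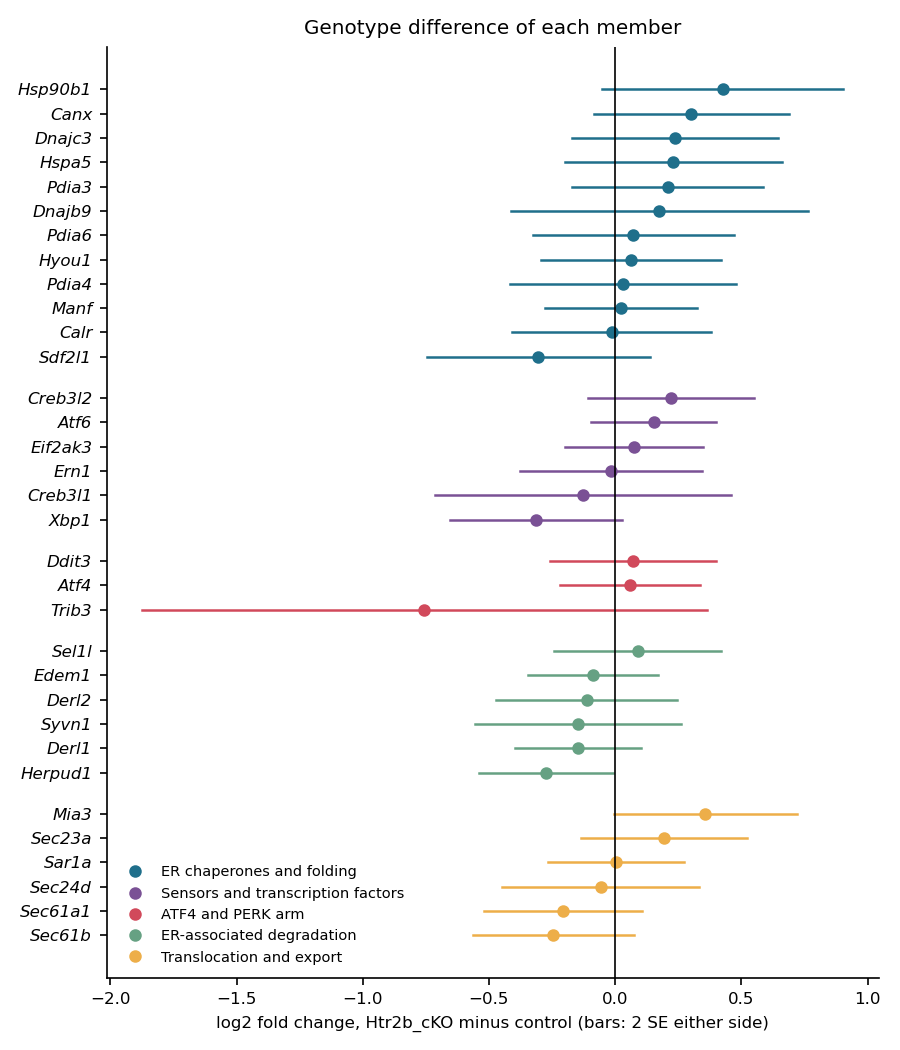
Log2 fold change of each of the 33 members, Htr2b_cKO minus control, grouped by role, with bars of 2 standard errors either way (4 against 2 libraries). Most bars cross 0 and no member passed the adjusted threshold. The 12 chaperones lie mostly to the right of 0, with a median of 0.12, and the 6 degradation genes mostly to the left, with a median of -0.13.

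The role groups lay on different sides of 0, although none of them held a called gene. The 12 chaperones had 10 values above 0 and a median log2 fold change of 0.12. Of the 3 PERK arm genes 2 were above 0, with a median of 0.06. The 6 translocation and export genes were split evenly at 3 and 3, with a median of -0.03. Among the 6 sensors and transcription factors, 3 were above 0 and the median was 0.03. Only 1 of the 6 degradation genes was above 0, and their median was -0.13. Left out together, Htr2b_cKO 3 and Htr2b_cKO 4 moved the PERK arm median to -0.055, and without Htr2b_cKO 3 alone the export median was 0.059. After a correction for GC content and exon length the PERK arm median was 0.26 and that of the chaperones 0.12, so the order of these 2 groups turned round. The chaperone count rested on control 1. Without that library 3 of the 12 chaperones were above 0 and their median was -0.04, whereas without control 2 there were 11 and the median was 0.32. The PERK arm median without control 1 was -0.03, so it was also slightly above that of the chaperones there.

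The most abundant members were chaperones, though not all 12 chaperones stood high. The TPM scale accounts for library size and for length, taken over all annotated exons of a gene. On this scale Calr had a mean level of 1706 ± 249 (SD, n = 6 libraries), Hspa5 1256 ± 244, Hsp90b1 1149 ± 301 and Pdia3 1069 ± 180. These 4 genes encode calreticulin, the HSP70 chaperone BiP, the HSP90 chaperone GRP94 and a disulfide isomerase that works with calreticulin. Atf4 stood seventh among the members, at 342 ± 27 TPM. The sensors Eif2ak3, Atf6 and Ern1 were far lower, at 24.8 ± 2.6, 17.1 ± 1.7 and 12.4 ± 2.0 TPM, and Trib3 was the lowest member, at 3.5 ± 1.9 TPM. The means of Hspa5 and Hsp90b1, and of Hsp90b1 and Pdia3, lay within 1 SD of each other. That SD is the spread between libraries, and the order of these genes within each library was not compared.

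Hspa5 (ENSMUSG00000026864, chr2:34771970-34777547) encodes BiP, which binds unfolded chains and holds the sensors inactive. Its level was 1193 and 1701 CPM in the controls and 1655, 1901, 1395 and 1842 CPM in Htr2b_cKO 1 to 4. The groups overlapped, with control 1 the lowest library and control 2 above 2 of the 4 knockout libraries. The log2 fold change was 0.23 (SE 0.22, adjusted p = 0.763 by edgeR), and the range of 2 SE either way ran from -0.20 to 0.66. It was -0.0043 without control 1 and 0.52 without control 2.

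Hsp90b1 (ENSMUSG00000020048, chr10:86690209-86705509), whose promoter window carries 2 ER stress elements, had the largest positive value of the 33. Its level was 943 and 1347 CPM in the controls and 1455, 1515, 1229 and 1955 CPM in the knockout libraries. Control 1 was lowest and Htr2b_cKO 4 highest, and Htr2b_cKO 3 lay between the controls, so the groups overlapped. Means of 1145 ± 286 (SD, n = 2) and 1538 ± 304 (n = 4) CPM gave a log2 fold change of 0.43 (SE 0.24), with an adjusted p of 0.618 in edgeR. Without Htr2b_cKO 3 its log2 fold change was 0.53 with an adjusted p of 0.381, and without Htr2b_cKO 4 it was 0.29. The controls moved it more, to 0.19 without control 1 and to 0.71 without control 2, and the GC and length correction gave 0.20. Exons of Hsp90b1 overlap those of 1810014B01Rik on the other strand, and the 2 genes share a stretch of 273 identical bases. 1810014B01Rik held at most 71 counts in any library.

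Canx and Calr encode the paired lectin chaperones calnexin, which is bound to the membrane, and calreticulin, which is soluble. Canx had 303 and 434 CPM in the controls and 437, 496, 387 and 497 CPM in the knockout libraries. Again control 1 was lowest and Htr2b_cKO 3 lay below control 2. Its log2 fold change was 0.30 (SE 0.19, adjusted p = 0.651 by edgeR), but 0.026 after the GC and length correction, 0.064 without control 1 and 0.59 without control 2. Calr (ENSMUSG00000003814, chr8:84841850-84846934) had 1388 and 1625 CPM in the controls and 1491, 1595, 1184 and 1699 CPM in the knockout libraries. Its lowest library was a knockout one, Htr2b_cKO 3, and its log2 fold change was -0.01 (SE 0.20, adjusted p = 0.986). Both promoters carry the ER stress element, and the 2 SE range of each gene held the other's estimate.

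The disulfide isomerases Pdia3, Pdia4 and Pdia6 form and rearrange the disulfide bonds of folding chains. Pdia3 had 820 and 1031 CPM in the controls and 1021, 1118, 907 and 1229 CPM in the knockout libraries, a log2 fold change of 0.21 (SE 0.19) that was 0.05 without control 1. Pdia4 and Pdia6 were close to 0, at 0.03 (SE 0.22) and 0.07 (SE 0.20). All 3 had their highest level in Htr2b_cKO 4, at 1229, 496 and 759 CPM, and overlapped between groups. The lowest library was control 1 for Pdia3, Htr2b_cKO 3 for Pdia4 and Htr2b_cKO 1 for Pdia6.

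Among the J-domain co-chaperones of BiP, Dnajb9 (ERdj4), a classical XBP1 target, was the most variable chaperone. It had 59.7 and 124 CPM in the controls and 102, 88.5, 93.4 and 131 CPM in the knockout libraries, so the controls alone spanned nearly the whole range. Its log2 fold change of 0.18 (SE 0.29, adjusted p = 0.880 by edgeR) became 0.80 without control 2 (adjusted p = 0.326) and -0.26 without control 1. Dnajc3 (p58IPK), which also restrains PERK, had 111 and 165 CPM in the controls and 143, 176, 141 and 191 CPM in the knockout libraries. Control 1 was again lowest, and the log2 fold change was 0.24 (SE 0.20, adjusted p = 0.741). It was -0.016 after the GC and length correction, -0.027 without control 1 and 0.56 without control 2.

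The remaining chaperones were Hyou1, a nucleotide exchange factor for BiP, Manf, a small secreted ER stress protein, and Sdf2l1, a partner of the J-domain co-chaperones. Hyou1 ranged from 150 to 217 CPM and Manf from 241 to 302 CPM, with log2 fold changes of 0.06 and 0.02. Annotated exons of Manf overlap those of Rbm15b on the same strand and of Dcaf1, with 676 to 988 counts, on the other. The level of Manf is therefore uncertain. Sdf2l1 was the chaperone with the most negative value, at 56.5 and 69.2 CPM in the controls and 40.8, 49.7, 43.4 and 69.5 CPM in the knockout libraries. Htr2b_cKO 4 was at the level of control 2 and the other 3 knockout libraries lay below both controls. Its log2 fold change was -0.30 (SE 0.22, adjusted p = 0.687 by edgeR). Without Htr2b_cKO 4 it was -0.49, and there the unadjusted but not the adjusted p was under 0.05. In that setting 8.39% of all genes tested had an unadjusted p under 0.05. The GC and length correction turned the log2 fold change of Sdf2l1 to 0.013, and without control 2 it was -0.15.

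**Figure D2:**
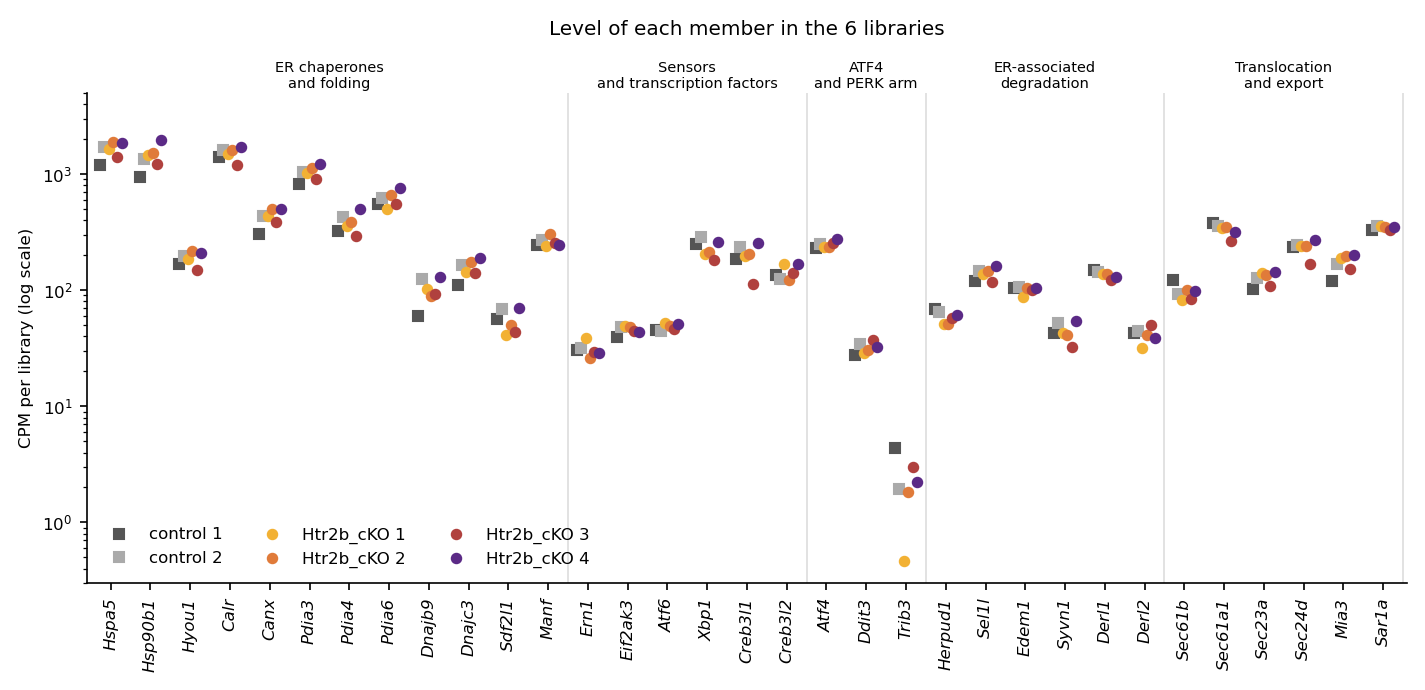
Level of the members in each of the 6 libraries, as CPM on a log scale, grouped by role. Htr2b_cKO 4 is the highest library for 9 of the 12 chaperones and for 17 of the 33 members, and control 1 and Htr2b_cKO 3 are most often among the lowest.

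The chaperones ordered the libraries in much the same way, and this order did not follow genotype. Htr2b_cKO 4 was the highest library for 9 of the 12 chaperones, and Htr2b_cKO 2 for the other 3. Over all genes tested Htr2b_cKO 4 was highest for 17.2%. Control 1 was among the lowest 2 libraries for 10 of the 12, against 36.3% of all genes, and Htr2b_cKO 3 also for 10, against 34.2%. Thus a control and a knockout library stood together at the low end. After a correction for GC content and exon length, these libraries were the lowest 2 for all 12 chaperones, while their shares over all genes were 41.1% and 41.7%. In that setting Htr2b_cKO 4 was highest for 7 of the 12, Htr2b_cKO 2 for 3 and control 2 for 2. With the size factors of DESeq2 the counts of control 1 and Htr2b_cKO 3 were again 10 and 10. These counts describe the libraries and were not tested.

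Taken as a group level, the median over genes of log2 CPM minus the gene's mean, the chaperones were at -0.26 and 0.09 in the controls and at -0.0048, 0.14, -0.16 and 0.30 in Htr2b_cKO 1 to 4. The controls lay 0.35 apart on this scale, most of the 0.56 spanned by all 6 libraries. The PERK arm was at -0.10 and 0.03 in the controls and at -0.14, -0.05, 0.25 and 0.16 in the knockout libraries. Its highest library was thus Htr2b_cKO 3, one of the lowest for the chaperones. Export genes were at -0.02 and 0.04 in the controls and at 0.05, 0.07, -0.20 and 0.12 in the knockout libraries, so their lowest library was Htr2b_cKO 3 and their highest Htr2b_cKO 4. Control 1 was among the lowest 2 libraries for 4 of the 6 export and translocation genes, and Htr2b_cKO 3 for all 6. The degradation genes spanned only 0.22, from -0.11 in Htr2b_cKO 1 to 0.10 in control 2.

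**Figure D3:**
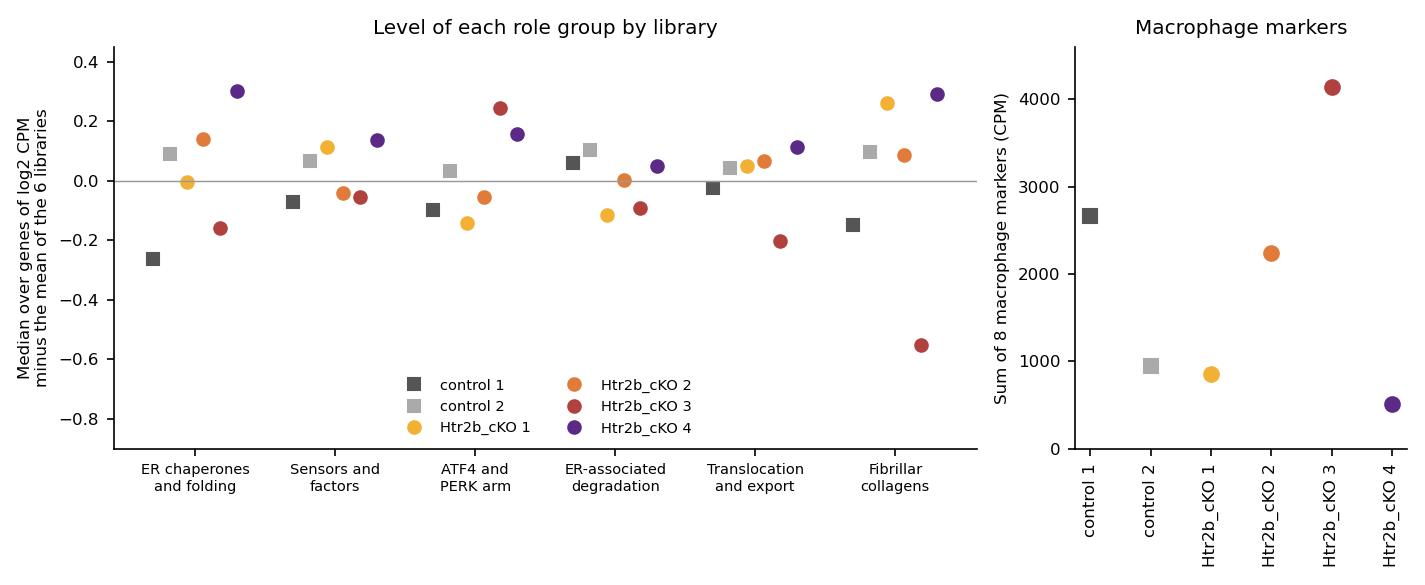
Level of each role group in each library, as the median over its genes of log2 CPM minus the gene's mean over the 6 libraries, with the fibrillar collagens Col1a1, Col1a2 and Col3a1 for comparison. The chaperones span -0.26 to 0.30 and the groups of libraries overlap; the collagens are lowest in Htr2b_cKO 3, at -0.55.

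Beside the chaperone order stood other values that differed between the same libraries. The median level of 3 fibrillar collagen genes, a major cargo of this machinery, was -0.15 and 0.10 in the controls and 0.26, 0.09, -0.55 and 0.29 in the knockout libraries. The sum of 8 macrophage markers was 2662 and 945 CPM in the controls and 853, 2239, 4143 and 512 CPM in the knockout libraries. It was highest in the 2 libraries where the chaperones were lowest and lowest where they were highest. In between, the orders differed: Htr2b_cKO 2 had 2239 CPM and a chaperone level of 0.14, and Htr2b_cKO 1 had 853 CPM and -0.0048. Endothelial markers (6 genes) were at 235 CPM in control 1 and at 44.1 to 88.1 CPM elsewhere. The sum of 10 genes that respond to tissue dissociation, which include cytosolic heat shock genes, was lowest in control 1, at 8891 CPM, and highest in Htr2b_cKO 4, at 13511 CPM. The part of these cells and of dissociation in the chaperone levels was not tested.

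As a group, the sensors and their factors spanned 0.21 over the libraries on the scale of the group level, less than the chaperones. Eif2ak3, which encodes PERK, ranged from 39.9 to 48.9 CPM, and Ern1, which encodes IRE1, from 25.9 to 39 CPM. Their log2 fold changes were 0.08 and -0.02. Atf6 (ENSMUSG00000026663, chr1:170704674-170867771) had 45.2 and 44.5 CPM in the controls and 52.3, 49.3, 46.5 and 51.3 CPM in the knockout libraries. It was the only member whose 4 knockout libraries all lay above both controls, as 10.6% of all genes tested did. The log2 fold change was 0.15 (SE 0.12, adjusted p = 0.719 by edgeR), and its sign turned to -0.085 after the correction for GC content and length.

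Xbp1 (ENSMUSG00000020484, chr11:5520659-5525893), the transcription factor of the IRE1 arm, had 250 and 287 CPM in the controls and 207, 213, 182 and 262 CPM in the knockout libraries. Only Htr2b_cKO 4 reached the level of the controls. Means of 268 ± 26 (SD, n = 2) and 216 ± 34 (n = 4) CPM gave a log2 fold change of -0.31 (SE 0.17, adjusted p = 0.604 by edgeR), with a 2 SE range from -0.65 to 0.03. Without Htr2b_cKO 4 the value was -0.42 and the unadjusted p was under 0.05, but the adjusted p was 0.559. It was -0.17 after the GC and length correction and -0.21 without control 2. Total Xbp1 counts do not tell the spliced from the unspliced form.

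Xbp1 is also highly expressed in plasma cells, whose transcripts were high in the same libraries. The plasma cell sum was at least 1652 CPM in both controls and Htr2b_cKO 4 and at most 549 CPM in the other 3. In 4 of the 33 members (12.1%), Xbp1, Sdf2l1, Herpud1 and Edem1, these were also the 3 highest libraries, as in 5.72% of all genes tested. Of the 10 plasma cell markers, 9 had the higher mean in the controls. The part of plasma cells in the values of these 4 genes was not tested.

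Creb3l1 and Creb3l2 encode membrane-bound factors related to ATF6 that act on secretory and collagen genes. Creb3l1 (OASIS) had 185 and 236 CPM in the controls and 195, 207, 113 and 255 CPM in the knockout libraries. Htr2b_cKO 3 was the lowest library and Htr2b_cKO 4 the highest, and the log2 fold change was -0.13 (SE 0.29, adjusted p = 0.915). It was 0.071 without Htr2b_cKO 3, 0.064 without control 2, and 0.054 once GC content and length were corrected for. Creb3l2 ranged from 123 to 169 CPM with a log2 fold change of 0.22 (SE 0.16), and kept its sign in every alternative.

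In the PERK arm, Atf4 (chr15:80255184-80257541) was nearly level over the libraries, at 229 and 250 CPM in the controls and 233, 234, 256 and 274 CPM in the knockout libraries. Its log2 fold change was 0.06 (SE 0.14, adjusted p = 0.917 by edgeR). Atf4 is controlled largely at translation, which was not measured. Ddit3, which encodes the pro-apoptotic factor CHOP, had 27.6 and 34.2 CPM in the controls and 28.7, 30.6, 37.6 and 32.6 CPM in the knockout libraries, for a log2 fold change of 0.07 (SE 0.16). Its exons overlap Mars on the other strand, which held 1342 to 1915 counts, so the level of Ddit3 is uncertain where the counting did not use strand.

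Trib3 (chr2:152337422-152344032), a pseudokinase induced by ATF4 and CHOP, was the member with the largest fold change and the lowest level. It had 4.35 and 1.95 CPM in the controls and 0.463, 1.84, 2.99 and 2.23 CPM in the knockout libraries. Control 2 lay within the knockout range, so the fold rested on control 1 and Htr2b_cKO 1. The log2 fold change was -0.76 (SE 0.56, adjusted p = 0.693 by edgeR), with a 2 SE range from -1.87 to 0.36, and it was -0.03 without control 1, -0.45 without Htr2b_cKO 1 and -1.44 without both Htr2b_cKO 3 and Htr2b_cKO 4. Its promoter match to the C/EBP-ATF element lies after the start.

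The member with the smallest p was a degradation gene. Herpud1 (ENSMUSG00000031770, chr8:94386438-94395377) encodes a membrane protein that gathers the degradation complex, and its promoter window carries both the short ER stress element and the C/EBP-ATF element. It had 69.1 and 65.4 CPM in the controls and 51.3, 51.4, 58.0 and 61.5 CPM in the knockout libraries. All 4 knockout libraries lay below both controls, as in 8.98% of all genes tested. Means of 67.2 ± 2.6 (SD, n = 2) and 55.6 ± 5.0 (n = 4) CPM gave a log2 fold change of -0.27 (SE 0.13), an unadjusted p of 0.0703 and an adjusted p of 0.568 by edgeR. After the GC and length correction it was -0.092, with an adjusted p of 0.999.

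Sel1l and Syvn1 form the core of the HRD1 ubiquitin ligase, Edem1 hands over misfolded glycoproteins, and Derl1 and Derl2 belong to the channel out of the ER. Sel1l, at 118 to 161 CPM, was the only one of the 6 with a value above 0, at 0.09. Syvn1 ranged from 32.3 to 54.2 CPM with a log2 fold change of -0.15. Derl1 had 150 and 142 CPM in the controls and 138, 138, 122 and 129 CPM in the knockout libraries. These did not overlap, but the log2 fold change was only -0.15 (SE 0.13, adjusted p = 0.732 by edgeR). Edem1 also did not overlap, by a narrow margin, with 105.1 and 105.5 CPM in the controls and at most 104 CPM in the knockout libraries. Derl2 ranged from 31.7 to 49.6 CPM with a log2 fold change of -0.11, and its exons, like those of Syvn1, overlap an expressed gene on the other strand.

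At the translocation channel, Sec61a1 encodes the pore and Sec61b a small subunit. Sec61a1 (chr6:88503579-88518905) had 380 and 355 CPM in the controls and 343, 348, 266 and 318 CPM in the knockout libraries. It was the fourth member, with Herpud1, Edem1 and Derl1, whose knockout libraries all lay below both controls, and its log2 fold change was -0.21 (SE 0.16, adjusted p = 0.698 by edgeR), or -0.12 without Htr2b_cKO 3. Sec61b ranged from 81.8 CPM in Htr2b_cKO 1 to 122 CPM in control 1, with a log2 fold change of -0.25 (SE 0.16).

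Among the export genes, Mia3, Sec23a and Sec24d act together: Mia3 encodes TANGO1, the receptor that loads procollagen, and Sec23a and Sec24d encode parts of the COPII coat. Mia3 (ENSMUSG00000056050, chr1:183326725-183369553) had 120 and 167 CPM in the controls and 188, 196, 154 and 199 CPM in the knockout libraries. Htr2b_cKO 3 lay below control 2 and the other 3 knockout libraries lay above both controls. Means of 144 ± 33 (SD, n = 2) and 184 ± 21 (n = 4) CPM gave a log2 fold change of 0.36 (SE 0.18), an unadjusted p of 0.0817 and an adjusted p of 0.583 by edgeR. Without Htr2b_cKO 3 it was 0.45 with an adjusted p of 0.348, and without control 1 it was 0.14. Leaving out control 2 gave 0.62, and the GC and length correction gave 0.23.

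Sec23a had a log2 fold change of 0.19, from 103 CPM in control 1 to 144 CPM in Htr2b_cKO 4. Sec24d, whose promoter carries the XBP1-type element, was at -0.06, with the lowest level of 168 CPM in Htr2b_cKO 3. Sar1a, the GTPase that starts coat assembly, was the flattest of the 33 members, at 329 and 359 CPM in the controls and 353, 348, 327 and 350 CPM in the knockout libraries. Its highest library exceeded its lowest by a factor of 1.1, while the median factor was 1.62 for the chaperones, 1.46 for the export and translocation genes, 1.44 for the sensors, 1.36 for the PERK arm, 1.35 for the degradation genes and 1.7 for all genes tested.

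Members with the full ER stress element in the promoter window had a median log2 fold change of 0.23, with 5 of 7 above 0. The other 20 members with a promoter had a median of 0.017, with 11 above 0. Herpud1, which carries only the short form and had a value of -0.27, was counted among these 20. Without control 1 the medians were -0.02 and -0.06, with 2 of 7 and 4 of 20 above 0, and without control 2 they were 0.52 and 0.10. After the GC and length correction they were 0.12 and 0.016. These medians are descriptions. The element was found mostly in chaperones, so the split by promoter and the split by role hold much the same genes.

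Wider lists of the same pathway gave no called gene. Of 30 other folding and quality control genes of the ER, 14 had values above 0 and 16 below (median -0.04). In 3 of the 30 the unadjusted p was under 0.05 with the higher level in the knockout libraries, against 6.6% of all genes tested. The leading one by p was Hspa13, an HSP70 relative, at 49.7 ± 11 CPM in the controls and 68.5 ± 3.3 in the knockout libraries (log2 fold change 0.46, edgeR adjusted p = 0.425), followed by Tmx1, a thioredoxin-related isomerase, at 0.32. Of 27 further ATF4 targets, 9 were above 0 and 18 below (median -0.16), 2 with an unadjusted p under 0.05, both lower in the knockout libraries, against 2.99% of all genes tested in that direction. These were Chac1, which degrades glutathione, at 1.66 CPM in the controls on average and 0.56 ± 0.30 in the knockout libraries (log2 fold change -1.54, SE 0.50, adjusted p = 0.410), and Psat1, an enzyme of serine synthesis, at -0.29 (adjusted p = 0.520). Chac1 was thus a low gene whose direction was that of Trib3.

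Of 18 further genes of translocation and targeting to the ER, 11 were above 0 (median 0.06), led by Srp54a, a subunit of the signal recognition particle, at 76.8 ± 8.8 CPM in the controls and 103 ± 7 in the knockout libraries (log2 fold change 0.42, edgeR adjusted p = 0.412). Sec63, which couples the channel to BiP, had a value of 0.39. The 22 further COPII and cargo receptor genes were split at 11 and 11 (median -0.0025). They were led by Mia2, the partner of Mia3, at 0.33, and Lman2, a lectin cargo receptor, at -0.23, with adjusted p of 0.499 and 0.601. Of 13 further signalling genes of the stress response (a listed fourteenth was not tested), 8 were above 0 (median 0.11), with Casp12, an ER-associated caspase, at 0.50 and Mbtps2, a protease that cuts ATF6, at 0.36.

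**Figure D4:**
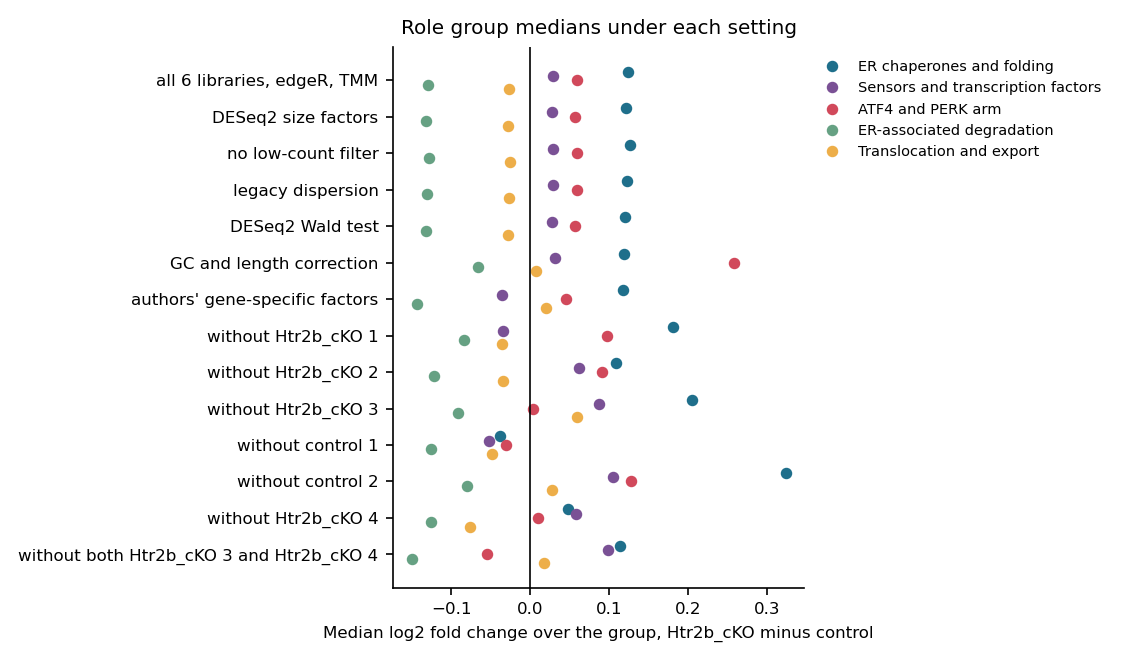
Median log2 fold change of each role group with all 6 libraries and under each alternative: other scalings, filters and tests, and libraries left out. The chaperone median is -0.04 without control 1 and 0.32 without control 2, against 0.12 with all 6 libraries.

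The sign of most members depended on which libraries were used. In 11 of the 33 it was the same under every alternative tried, though not the size. These were Canx, Hsp90b1, Pdia3, Creb3l2 and Mia3 above 0, and Derl1, Derl2, Herpud1, Sec61a1, Trib3 and Xbp1 below. Without control 1, 7 of the 33 members lay above 0, and without control 2, 23 did. The plot of values by setting shows the controls to be the libraries that moved the chaperones most. Leaving out both Htr2b_cKO 3 and Htr2b_cKO 4 left 9 of the 12 chaperones above 0, with a median of 0.11. No member was called in any setting. Unadjusted p-values of edgeR under 0.05 went both ways. Without Htr2b_cKO 4 they were those of Sdf2l1 and Xbp1, both below 0, against 8.39% of all genes. Without Htr2b_cKO 3 they were those of Hsp90b1 and Mia3, both above 0, against 12.6%. Without both libraries they were those of Sdf2l1 and Herpud1, both below 0, against 9.69%. Fits with 1 control are left out of this list.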

How the data were processed

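RNA-seq was analysed from 6 libraries, 2 control and 4 Htr2b_cKO, grouped by the genotype label and numbered within a group in accession order. The authors deposited estimated counts per Ensembl gene, whole numbers and not normalized, which were used as they stand. A second deposited table holds a normalized signal, the counts scaled by factors that vary by gene as well as by library. It served only as an alternative scaling. DRAGEN, DESeq2 and mm10 are named per the submitters' processing notes. Their roles and versions, and the strand setting, are not stated in these sources. Every per-sample column matched a sample, and 0 other columns were used.

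Symbols, coordinates and exon lengths came from GENCODE M21 (GRCm38), which matched all 42256 gene identifiers. Genotypes were compared with edgeR 4.0.16 under R 4.3.3, by its quasi-likelihood F test (TMM, filterByExpr, robust, two-sided, genotype as the only term) over 15840 genes, with Benjamini-Hochberg adjustment and a call at adjusted p under 0.05. DESeq2 1.42.0 was an alternative. Each SE was derived from the log2 fold change and its F statistic. CPM use TMM-scaled totals, TPM use exon lengths, and errors are SD. A single-value permutation test over the 15 splits cannot give a p under 0.0667, so none was run. P-values weigh the genotype difference against the spread between these libraries, as estimated with information shared between genes. The alternatives were no low-count filter, the size factors and the Wald test of DESeq2, the authors' factors, a correction for GC content and length, the older dispersion estimate of edgeR, and leaving out each library or both Htr2b_cKO 3 and 4.

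The members and lists were chosen with earlier results of these data known. All members are named, with the 2 genes of smallest p from each wider list, and Htr2b, Postn, Pdgfra, Xist, Kdm5d and fibrillar collagens as checks. Of 28 further ATF4 targets, Nars1 was not matched.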

Additional observations from a re-analysis of the deposited data

Results flagged for a closer look

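Htr2b, the targeted gene, was at 0.876 CPM in the library labelled Htr2b_cKO 3 and at 0, 0.0904 and 0.119 CPM in Htr2b_cKO 1, 2 and 4. The gap to the next knockout library was 0.864 of the range of the group, above Dixon's 95% critical value for 4 samples. Of the 39 genes checked in this way (the 33 members, Htr2b, Postn, Pdgfra and 3 fibrillar collagens), none other was set apart like this, and chance does so in about 1 in 20 groups. The value rests on 29 estimated counts.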

How the results depend on the processing

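No member was called in any setting, and with 2 controls each of them carries much of every estimate. Over all genes, 5 were called with no low-count filter, 136 by the DESeq2 Wald test, 5 without both Htr2b_cKO 3 and Htr2b_cKO 4, and 1 to 8 when 1 library was left out, against 3. Members whose groups did not overlap numbered 5. They were 1 after the correction for GC content and length (13.1% of all genes), 2 with the authors' factors (17.5%), 13 without both libraries (42.5% of all genes) and 5 to 18 when 1 library was left out (47.4% of all genes without control 2). The median of the PERK arm was 0.26 after the GC and length correction. Signs turned under that correction for Calr (0.12), Dnajb9 (-0.044), Dnajc3 (-0.016), Sdf2l1 (0.013), Ern1 (0.0096), Atf6 (-0.085), Creb3l1 (0.054), Sec61b (0.083) and Sec23a (-0.0090). Without both libraries they turned for Calr (0.035), Pdia4 (-0.019), Pdia6 (-0.013), Ern1 (0.057), Atf4 (-0.035), Ddit3 (-0.055) and Sec24d (0.0047), and with the authors' factors for Eif2ak3 (-0.019), Sel1l (-0.013), Edem1 (0.012) and Sec24d (0.017). The cause was not tested. With 1 library left out, signs turned within these ranges: Atf4 -0.0041 to 0.13, Calr -0.12 to 0.11, Creb3l1 -0.29 to 0.071, Ddit3 -0.080 to 0.24, Dnajb9 -0.26 to 0.80, Dnajc3 -0.027 to 0.56, Eif2ak3 -0.059 to 0.22, Ern1 -0.14 to 0.061, Hspa5 -0.0043 to 0.52, Hyou1 -0.054 to 0.19, Manf -0.052 to 0.11, Pdia4 -0.16 to 0.26, Pdia6 -0.042 to 0.18, Sar1a -0.061 to 0.074, Sec24d -0.15 to 0.079, Sel1l -0.056 to 0.25 and Syvn1 -0.29 to 0.012. No paired analysis was possible because the labels give no replicate number that the groups share.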
